A study of Homo sapiens with 5 samples.

Results

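Oxidative phosphorylation is carried out in the inner mitochondrial membrane by 5 protein complexes, and the nuclear genes that encode their subunits were examined here for binding of PHF8, a histone demethylase with a Jumonji C domain. The set holds 87 of 20163 nuclear protein-coding genes. Members were chosen by symbol in GENCODE release 44 on GRCh37 (hg19): NDUFA, NDUFB, NDUFC, NDUFS and NDUFV genes for complex I, SDHA to SDHD for complex II, UQCR genes for complex III, COX4 to COX8 genes for complex IV, and ATP5F, ATP5M and ATP5P genes for complex V. They comprise 39 genes of complex I, 4 of complex II, 9 of complex III, 17 of complex IV and 18 of complex V. The same prefixes also match 8 NDUFAF assembly factors and 2 readthrough genes, which encode no subunit of their own and were counted apart.

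The study sought the direct targets of PHF8 in the human melanoma line SKMEL-147, an established cell line in which a PHF8 loss-of-function model was also made. An antibody to PHF8 was used for chromatin immunoprecipitation with sequencing (ChIP-seq) of 3 replicates, named A, B1 and B2, next to 2 input libraries, A and B. The inputs enter only through the values that the peak caller gave each ChIP peak, and no PHF8-deficient chromatin was analysed here, so the peaks carry no check of the antibody against loss of its target. All values describe 1 cell line, and whether the cells carried a control guide is not stated in the labels. B1 and B2 bear the letter of a single input, and nothing in the labels says that the replicates came from separate cultures, so their spread may be technical.

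Complex I passes electrons from NADH to ubiquinone, complex II does so from succinate, complex III hands them to cytochrome c and complex IV to oxygen, while complex V uses the resulting proton gradient to make ATP. A few subunits are encoded by mitochondrial DNA, and the remainder are nuclear genes whose products are imported and assembled. Most are expressed in nearly every cell, and a small number have paralogues limited to muscle, testis or lung. Their promoters are known for binding sites of nuclear respiratory factor 1 (NRF1), of the ETS family factor GABPA (nuclear respiratory factor 2), of YY1 and of SP1. Promoter-bound PHF8 is known as a reader and eraser of histone methylation at active start sites.

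A gene was called bound when a deposited peak reached within 1 kb of any of its transcription start sites (TSSs) in all 3 replicates. Replicate lists held 20120 to 21506 peaks, and the weakest summits carried 8 to 10 ChIP fragments, a number recovered from the fold enrichment and the p-value of each peak. Weaker binding was not detectable at this depth. Among 6 melanocyte lineage markers, the promoters of MITF, SOX10 and PMEL were bound and those of MLANA, TYR and DCT were not. The share of all protein-coding genes bound by this rule was 60.2%. SOX10 had weak peaks, with a fold enrichment of 7.27, 8.18 and 6.90 in A, B1 and B2, against 47.1, 27.8 and 27.7 for PMEL. A peak list holds no expression, so it cannot tell which subunits these cells make.

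PHF8 was found at 78 of the 87 subunit promoters (89.7%, 95% Wilson interval 81.5 to 94.5), while 60.2% of all protein-coding genes were bound by the same rule. All 39 genes of complex I and all 4 genes of complex II were bound, as were 8 of 9 in complex III and 17 of 18 in complex V. Complexes were assigned by symbol, so complex I includes NDUFA4, whose product is now assigned to complex IV, and its paralogue NDUFA4L2. Complex IV stood apart with 10 of 17 (58.8%, interval 36.0 to 78.4), close to the share of all genes. The intervals cover counting error over genes only. Single replicates had a peak at 79 members in A, 79 in B1 and 78 in B2, so the calls hardly depended on which replicate was read.

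Most of these promoters lie in sequence rich in CpG, which is itself often bound by PHF8. Of the 87 members, 76 had CpG-island-like sequence within 250 bp of the canonical TSS (at least 50% GC and CpG at 0.6 or more of its expected frequency). Among those, 73 were bound, against a background of 81.0% for CpG-island-like protein-coding genes. Of protein-coding genes without such sequence at the canonical TSS 17.9% were bound, and 5 of 11 members were: ATP5MF, NDUFA4L2, NDUFB3, NDUFC1 and NDUFS4. Of these, NDUFB3, ATP5MF and NDUFC1 fell just short of the CpG criterion, at 0.558, 0.582 and 0.590. NDUFC1 also fell below the GC minimum, at 49.4%. Binding was scored at any TSS, so the bound sequence can differ from the sequence scored. NDUFA4L2 was bound only away from its canonical TSS, and the strongest NDUFC1 peaks were nearest to another of its TSSs.

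The genes without a call in all replicates were COX7B and 8 paralogues. UQCRHL, COX4I2, COX6A2, COX6B2, COX7A1, COX7B2, COX8C and ATP5MGL had no peak in any replicate. The summit nearest to their TSSs was 9001 bp away for ATP5MGL, 10964 bp for COX7A1, 10995 bp for COX6B2, 13852 bp for COX8C and 14627 bp for COX6A2. It was 23985 bp away for COX4I2, 24014 bp for UQCRHL and 123344 bp for COX7B2. No list thus held a weak or displaced peak near these promoters.

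All 8 belong to a list of 9 tissue-restricted or retrocopy paralogues written from general knowledge, and 1 of the 9 was bound against 77 of the other 78 members. COX6A2 and COX7A1 are the heart and skeletal muscle forms of their subunits. COX4I2 is the form enriched in lung, COX6B2, COX7B2 and COX8C are testis forms, and UQCRHL and ATP5MGL resemble copies of UQCRH and ATP5MG. Of the 9 broadly expressed counterparts, 8 were bound. COX4I2, COX6B2 and COX7A1 had CpG-island-like sequence without a peak. The other 6 paralogues, among them the bound NDUFA4L2, did not have such sequence, and without it 17.9% of protein-coding genes were bound. Of the 78 members not on the list, 73 had such sequence, where the background was 81.0%. The contrast between the 2 groups therefore includes this difference in sequence.

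The counterparts spanned much of the range of binding. COX4I1 had a fold enrichment of ChIP over local background of 38.9, 26.9 and 26.6 in A, B1 and B2, and COX6A1 had 35.6, 22.2 and 23, respectively. COX6B1 had 39.1, 20.3 and 18.8 in A, B1 and B2. COX8A followed at 32.9, 23.8 and 23.6 in A, B1 and B2. Each of these 4 genes exceeded 18 in every replicate, where its paralogue had no peak. COX7A2 was lower at 28.1, 16.7 and 11.5 in A, B1 and B2, and ATP5MG had 25.3, 17.1 and 16.1. NDUFA4, named as a complex I gene although its product is now assigned to complex IV, had 35.6, 17.7 and 22.1 in A, B1 and B2. The strongest B2 peak of COX7A2 and the strongest B1 peak of NDUFA4 did not overlap the strongest peaks of the other replicates. Every replicate listed at least 2 promoter peaks at both genes, so only the strongest of several peaks was compared.

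NDUFA4L2, the paralogue of NDUFA4 known for its induction in hypoxia, was the bound exception and the weakest bound member. Replicate A gave 22.1, whereas B1 and B2 gave 7.27 and 7.47. The strongest summits lay 1173 bp downstream of the nearest own TSS in A, 398 bp in B1 and 318 bp in B2. The peaks of B1 and B2 overlapped, and the strongest peak of A did not overlap them. Replicate A listed 2 promoter peaks, and NDUFA4L2 stayed bound when summits had to lie inside the window. With the canonical TSS alone it was no longer bound. No other member lost its call under that setting.

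COX7B, an X-linked subunit of complex IV, had a peak in only 2 replicates. It had a fold enrichment of 10.5 in A on 26 fragments and of 5.63 in B1 on 19 fragments, and no peak in B2. The strongest summit was 138 bp downstream of its TSS in A and at position -330 in B1, where MAGT1 starts in the other direction. Both of these replicates listed 2 promoter peaks. Its value was the lowest of all members with a peak in A and in B1. NDUFB11 and NDUFA1, which are also X-linked, were bound with 36.6, 20.1 and 20.04 and with 28.1, 12.6 and 14.5 in A, B1 and B2. The strongest B1 peak of NDUFB11 did not overlap the strongest of A and B2, with 2 promoter peaks listed in each replicate.

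The promoters at the extremes of the set are shown for their differing base composition and motifs. Each line gives 150 bases before and 30 bases after the canonical TSS in hg19, 5′ to 3′ on the strand of the gene, and capitals mark matches on either strand to the letters searched for below. The first 3 are the members of highest mean percentile of fold enrichment among bound genes, and the next 3 were picked from the unbound members after their values were seen. The strongest summits of the first 3 all lay outside these windows, upstream for NDUFB1 and UQCRH and downstream for COX5A. At UQCRH the whole of the strongest peak was outside, so these windows do not show the sequence under the ranked summits. The windows are chr14:92588021-92588200, minus strand, for NDUFB1, chr15:75230385-75230564, minus strand, for COX5A, and chr1:46769220-46769399, plus strand, for UQCRH. Those of the unbound genes are chrX:77154815-77154994, plus strand, for COX7B, chr4:46911233-46911412, minus strand, for COX7B2, and chr16:31439652-31439831, minus strand, for COX6A2.
NDUFB1: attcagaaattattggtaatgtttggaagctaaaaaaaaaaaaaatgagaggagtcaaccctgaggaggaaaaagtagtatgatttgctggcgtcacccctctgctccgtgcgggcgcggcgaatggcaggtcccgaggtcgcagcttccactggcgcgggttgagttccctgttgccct
COX5A: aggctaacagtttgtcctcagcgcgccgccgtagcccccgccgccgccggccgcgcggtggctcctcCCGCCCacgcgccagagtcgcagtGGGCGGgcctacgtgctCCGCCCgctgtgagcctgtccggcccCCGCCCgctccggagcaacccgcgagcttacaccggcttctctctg
UQCRH: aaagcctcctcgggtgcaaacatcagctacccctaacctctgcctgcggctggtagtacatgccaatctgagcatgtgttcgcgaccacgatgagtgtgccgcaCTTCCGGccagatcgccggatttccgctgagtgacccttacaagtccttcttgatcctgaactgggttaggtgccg
COX7B: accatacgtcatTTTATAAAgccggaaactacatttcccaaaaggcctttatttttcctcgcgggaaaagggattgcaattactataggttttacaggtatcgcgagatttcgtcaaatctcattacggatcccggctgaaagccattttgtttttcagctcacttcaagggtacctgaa
COX7B2: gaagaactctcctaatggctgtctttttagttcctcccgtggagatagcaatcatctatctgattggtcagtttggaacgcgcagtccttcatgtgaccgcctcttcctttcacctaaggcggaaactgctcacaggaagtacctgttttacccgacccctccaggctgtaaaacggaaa
COX6A2: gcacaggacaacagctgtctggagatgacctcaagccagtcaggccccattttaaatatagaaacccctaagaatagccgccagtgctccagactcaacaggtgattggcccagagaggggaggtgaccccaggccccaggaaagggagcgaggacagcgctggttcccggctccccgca

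COX5A had 26 CG dinucleotides in these 180 bases and 4 stretches matching the SP1 letters, while NDUFB1 had 10 and UQCRH 11 with a single ETS match. Among the unbound promoters shown, COX6A2 had 5 CG dinucleotides, COX7B2 had 7 and COX7B had 9. COX7B carried TATA box letters in its upstream part. The 6 promoters were not chosen to represent their groups, so their counts are a description of these windows.

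**Figure D1:**
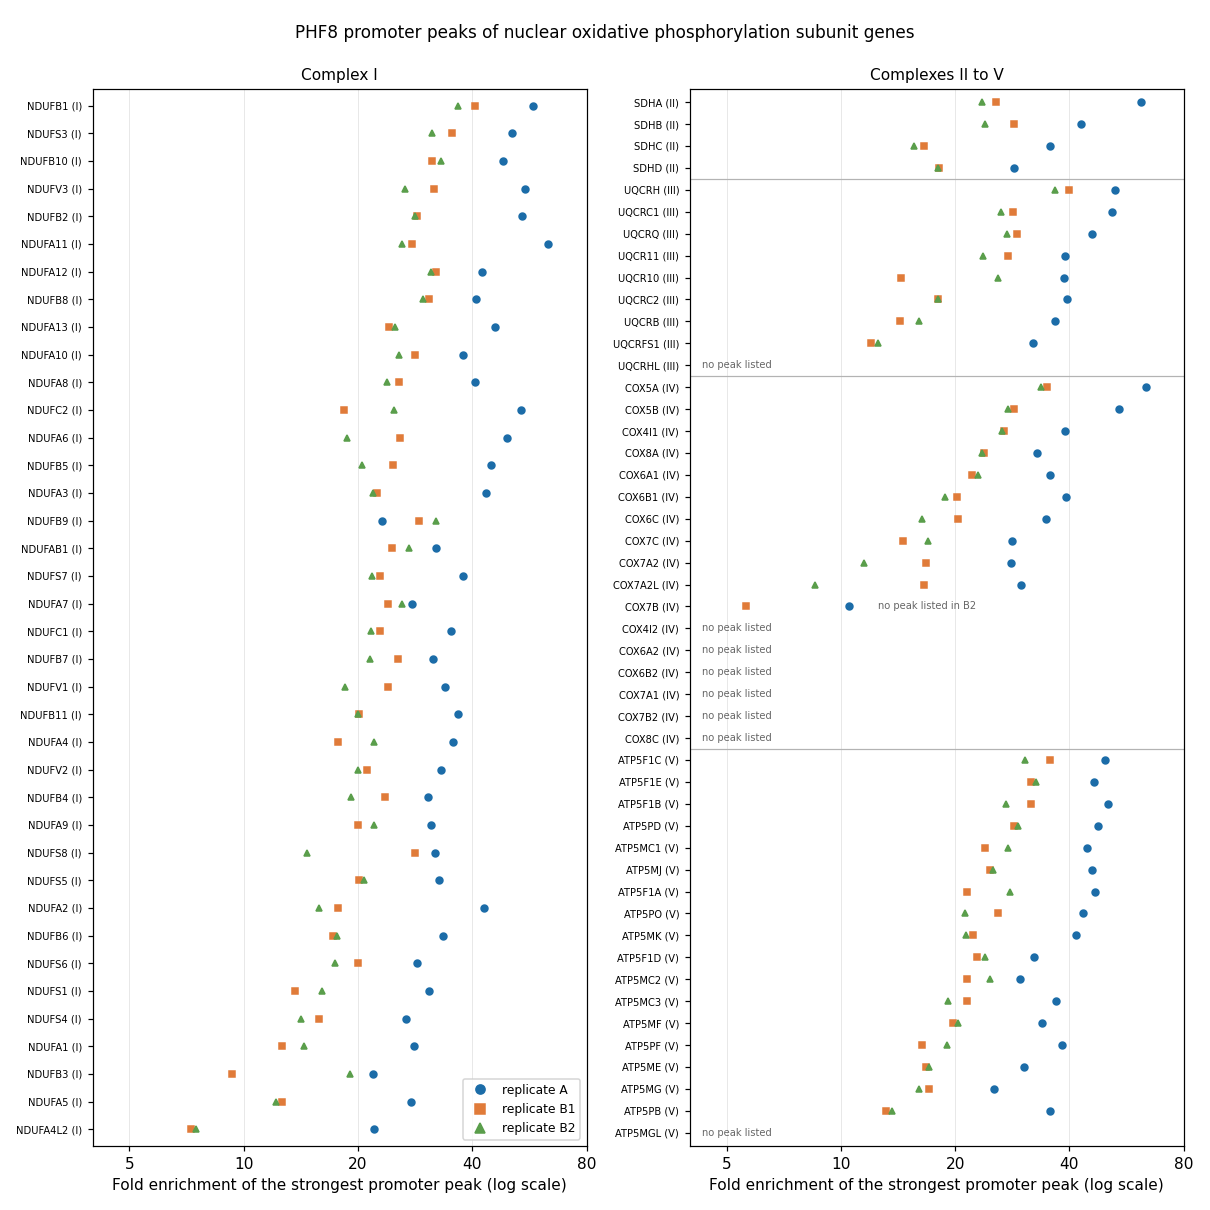
Fold enrichment of the strongest promoter peak (log scale) of the subunit genes, 1 gene left out, with 1 symbol for each replicate (A, B1, B2), ordered within complexes by mean rank. Replicate A lies to the right of B1 and B2 for nearly all genes, and the genes without a listed peak gather in complex IV.

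Bound members had somewhat stronger peaks than other bound genes. Replicate A gave them a median fold enrichment of 37.3, B1 gave 22.8 and B2 gave 21.97, against 33.3, 19.3 and 18.3 for the other 12061 bound protein-coding genes. The log2 ratio of the medians was 0.22 ± 0.054 (SD, n = 3) and above 0 in all 3 replicates. Because each list has its own scale, the strongest promoter peak of a gene was also ranked among all bound protein-coding genes of the same replicate. The median percentile of the bound members was 60.1, 64.1 and 65.5 in the 3 replicates, with a mean of 63.2 ± 2.81 (SD, n = 3), where the other genes had 49.9. The summit of a bound member carried, at the median, 115.5, 80 and 78 fragments in A, B1 and B2, against 97, 64 and 63. Peaks were not wider, with a median of 667 bp ± 80.6 against 740 bp ± 77.3.

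The shift came more from a scarcity of weak peaks than from an excess of the strongest. Below percentile 25 in all 3 replicates lay 1 member (1.28% of 78), NDUFA4L2, against 17.6% of bound protein-coding genes. Below percentile 50 lay 12 members (15.4%, against 39.1%) and above it 40 (51.3%, against 38.6%). Above percentile 75 the shares were closer, at 15 members (19.2%) against 15.3%. Over all genes, bound or not, fold enrichment above 20 in every replicate was reached by 45 of the 87 members (51.7%), with a background of 23.8% of protein-coding genes. Those shares include the difference in being bound. Among bound genes they correspond to 45 of 78 members and to 4789 of 12139 protein-coding genes. That cutoff was chosen after seeing the data.

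Bound genes of the 5 complexes had median ranks above the middle. The median percentile was 62.1 ± 6.89 for complex I, 61.6 ± 2.68 for complex II, 67.7 ± 6.97 for complex III, 57.7 ± 3.09 for complex IV and 68.2 ± 5.73 for complex V (SD, n = 3). Complex V was above complex IV in all 3 replicates, at 70.1 against 54.5 in A, 61.8 against 57.8 in B1 and 72.8 against 60.7 in B2, which was not tested. Within each complex the members spanned from below percentile 45 to above 80. The SD between members of the mean percentile was 19.4, and the median SD between replicates of a member was 7.34.

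**Figure D2:**
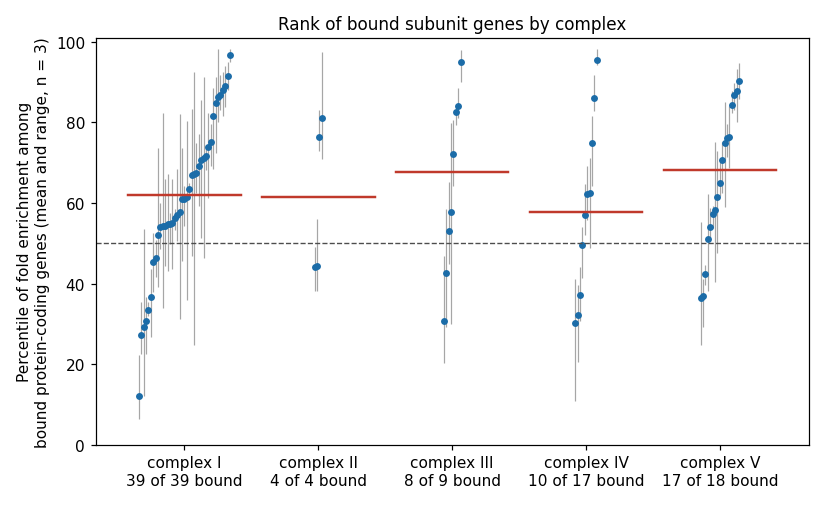
Percentile of each bound subunit gene among all bound protein-coding genes of the same replicate, as the mean (points) and the range (lines) of 3 replicates, grouped by complex. Red bars are the median of each complex, from 57.7 for complex IV to 68.2 for complex V, all above the dashed line at 50.

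In complex I, the highest member was NDUFB1, an accessory subunit of the membrane arm. Replicate A gave 57.7, B1 gave 40.8 and B2 gave 36.7, and the mean percentile of 96.8 ± 1.64 (SD, n = 3) was the highest of all 78 bound members. The summits lay between positions -184 and -172 from its nearest TSS and were closer to a TSS of CPSF2, a cleavage and polyadenylation factor gene. After NDUFA4L2 the lowest was NDUFA5, an accessory subunit of the matrix arm, with 27.7, 12.6 and 12.2 in A, B1 and B2. Its mean percentile was 27.1 ± 7.29. The strongest B1 peak of NDUFA5 did not overlap the strongest of A and B2, and each replicate listed 2 promoter peaks there.

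The core subunits of complex I, which carry the flavin, the iron-sulfur clusters and the quinone site, ranged widely. The highest was NDUFS3, with 51.0, 35.5 and 31.4 at a mean percentile of 91.5 ± 3.5. These summits were nearer to the TSS of another gene and lay beside an alternative NDUFS3 TSS, far from the canonical one. They were at 47587278 to 47587292 on chromosome 11, and the canonical TSS is at 47600626. With the canonical TSS alone NDUFS3 stayed bound, at another peak. NDUFV1, which binds NADH and the flavin, had 34.0, 23.9 and 18.5 in A, B1 and B2. NDUFS1, the largest iron-sulfur subunit, had 30.8, 13.6 and 16.1 and was the lowest of the 7 core subunits at a mean percentile of 36.7 ± 8.92. NDUFS7 had 37.9, 22.8 and 21.8 in A, B1 and B2, and NDUFS8 had 31.9, 28.3 and 14.7. Both carry iron-sulfur clusters near the quinone site. The median percentile was 57.0 ± 7.1 for the 7 core genes and 63.5 ± 5.68 for the 32 accessory genes. In single replicates it was 49.7 against 57.1 in A, 63.9 against 67.9 in B1 and 57.4 against 65.5 in B2, so the accessory genes were higher in all 3, which was not tested.

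Complex II has no paralogues and all of its genes were bound. SDHA, the flavoprotein, was at 61.7 in A but at 25.7 in B1 and 23.5 in B2, and its mean percentile was 81.1 ± 14.3. Its summits lay between positions -302 and -293 and were nearer to a TSS of another gene. CCDC127 is among the genes that start within 1 kb. SDHB, the iron-sulfur subunit, had 42.9, 28.6 and 24.0, with summits 68 bp to 102 bp downstream of its own TSS. The membrane anchors SDHC and SDHD had lower fold enrichment. SDHD had 28.6, 18.1 and 18.1, which placed it at percentile 44.1 ± 5.57, and SDHC was at 44.3 ± 10.2. SDHC had more fragments than SDHB in every replicate, with 154, 100 and 84 against 109, 83 and 72, over a higher local background of 3.35, 5.11 and 4.44 fragments.

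In complex III, UQCRH, the hinge protein that contacts cytochrome c1, was highest with 52.8, 39.97 and 36.6, at percentile 95.1 ± 4.33. Its summits lay between positions -560 and -553 and were nearer to a TSS of LRRC41. UQCRC1, a core protein of the matrix side, had 51.8, 28.5 and 26.4 with summits 89 to 122 bp downstream of its own TSS. UQCRFS1, the Rieske iron-sulfur protein, was lowest with 32.03, 12.01 and 12.6 in A, B1 and B2, at 30.7 ± 14.1.

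In complex IV, COX5A, an early-assembling subunit of the matrix side, led with 63.6, 34.9 and 33.6, at percentile 95.6 ± 2.3. Its summits lay 107 to 135 bp downstream of its own TSS, and no other protein-coding gene started within 1 kb. COX7A2L, which is known for its part in supercomplexes of complexes III and IV, was lowest with 29.7, 16.6 and 8.56, at 30.3 ± 16.9. COX4I1 was at percentile 74.9 ± 9.37.

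In complex V, the genes of the catalytic F1 head and its rotor ranked above those of the membrane part and stalk. The median percentile was 85.2 ± 4.41 for the 5 F1 genes and 60.1 ± 0.876 for the 12 bound genes of the remainder (SD, n = 3). ATP5F1A and ATP5F1B encode the alpha and beta subunits. ATP5F1B had 50.5, 31.6 and 27.2 in A, B1 and B2, and ATP5F1A had 46.8, 21.5 and 27.9. ATP5F1C, the gamma subunit of the rotor, was highest with 49.6, 35.5 and 30.6, at 90.4 ± 4.5. ATP5F1D at 61.6 ± 12.8 and ATP5F1A at 74.97 ± 14.0 overlapped the second group, where ATP5PD reached 84.4 ± 2.9, ATP5MC1 76.4 and ATP5MJ 76.0. The lowest bound gene was ATP5PB, a stalk subunit, with 35.5, 13.2 and 13.6, at 36.5 ± 16.5.

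Replicates ordered the members alike but not exactly. Spearman's rho of fold enrichment across the 78 bound members was 0.822 within the B pair, while A gave 0.667 against B1 and 0.620 against B2. The recovered fragments gave 0.888, 0.835 and 0.851. These are descriptions across genes that share libraries and local background, not tests. The largest disagreement was at NDUFB9, an accessory subunit of complex I, with 23.1, 29.0 and 32.2 in A, B1 and B2 and an SD of 36.9 percentile points. Its fragments were 115, 84 and 97, with a local background of 4.02 fragments in A against 1.93 in B1 and 2.04 in B2. Fold enrichment in A was thus low beside a high background and not beside few fragments.

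Neighbouring genes share many of these promoters. Another protein-coding TSS lay within 1 kb for 40 of the 87 members (46.0%), against 23.4% of all protein-coding genes, and for 39 of the 78 bound members (50%), against 32.4% of bound genes. In 20 bound members the strongest summit was nearer to the TSS of another gene in at least 1 replicate, so those peaks cannot be assigned to the subunit gene alone. Readthrough genes were counted as other genes in these numbers, as for NDUFC2, whose only neighbour was NDUFC2-KCTD14. Of the 47 members without such a neighbour 39 were bound (83.0%), with a background of 53.1%. They were 18 of 18 in complex I, 2 of 2 in complex II, 4 of 5 in complex III, 8 of 14 in complex IV and 7 of 8 in complex V. ATP5PF, a stalk subunit gene, shares its promoter with GABPA, which encodes nuclear respiratory factor 2 alpha. In each replicate both had the same strongest peak, at 38.2, 16.4 and 19.1 in A, B1 and B2. The strongest peak in B1 did not overlap those of A and B2, and each replicate listed 2 promoter peaks at ATP5PF.

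Summits of bound members lay mostly just downstream of the TSS. Their median position relative to the nearest own TSS was 93.7 bp ± 1.89 downstream, against 74.7 bp ± 1.53 for other bound protein-coding genes (SD, n = 3). Downstream summits made up 77.8% ± 1.96, against 65.9% ± 0.226. The interval from 50 to 150 bp downstream held 62.8% ± 2.22 of the members and 45.8% ± 0.895 of the others. In 53 members the summit was downstream in all 3 replicates, in 9 it was upstream in all 3, and in 16 the side differed. The 3 summits lay within 50 bp of each other in 54 of the 78. Members with a second peak in the promoter windows were as frequent as among bound genes in general, at 42.3%, 46.2% and 47.4% in A, B1 and B2 against 45.2%, 48.4% and 47.7%.

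**Figure D3:**
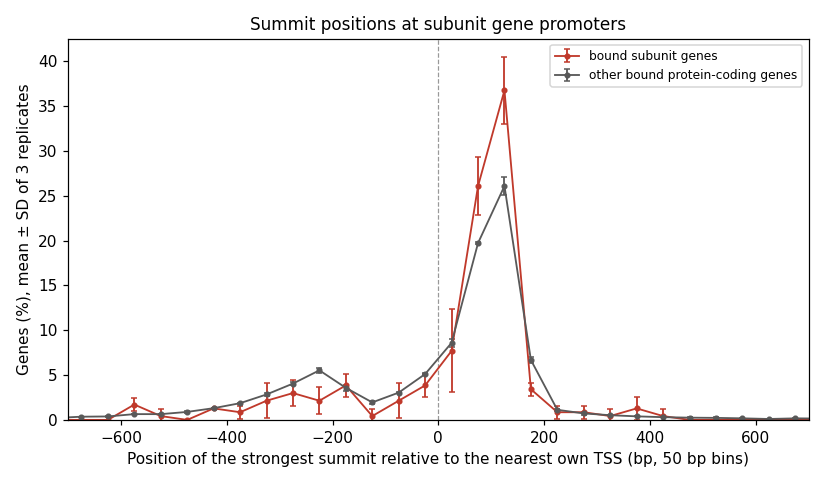
Share of genes (%, mean ± SD of 3 replicates) by position of the strongest summit relative to the nearest own TSS in bins of 50 bp, for the 78 bound subunit genes (red) and the other bound protein-coding genes (grey). Both peak between 50 and 150 bp downstream, where the subunit genes hold 62.8% and the others 45.8%.

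Letters of 3 factors known from these promoters were more frequent than over all genes. The window from 250 bp before to 50 bp after the canonical TSS was searched on both strands, where NRF1 was GCGCANGCG, ETS was CCGGAAG, YY1 was AAGATGGC, SP1 was GGGCGG and the TATA box was TATAAA. NRF1 letters were in 27 of 87 members (31.0%, 95% Wilson interval 22.3 to 41.4), against 10.9% of all protein-coding promoters and 16.2% of bound ones. ETS letters were in 24 (27.6%, 19.3 to 37.8), against 14.0% and 20.9%, and the interval of the members includes the share of bound genes. YY1 letters were in 15 (17.2%, 10.7 to 26.5), against 4.01% and 6.03%. At least 1 of these 3 was found in 54 members (62.1%), against 25.4% of all and 37.5% of bound genes. SP1 letters were in 59.8%, below the 75.7% of bound genes and close to the 60.9% of all genes, and TATA letters in 6.90%, against 9.80% of all and 4.64% of bound genes. A match is a description of sequence and not a site in use.

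**Figure D4:**
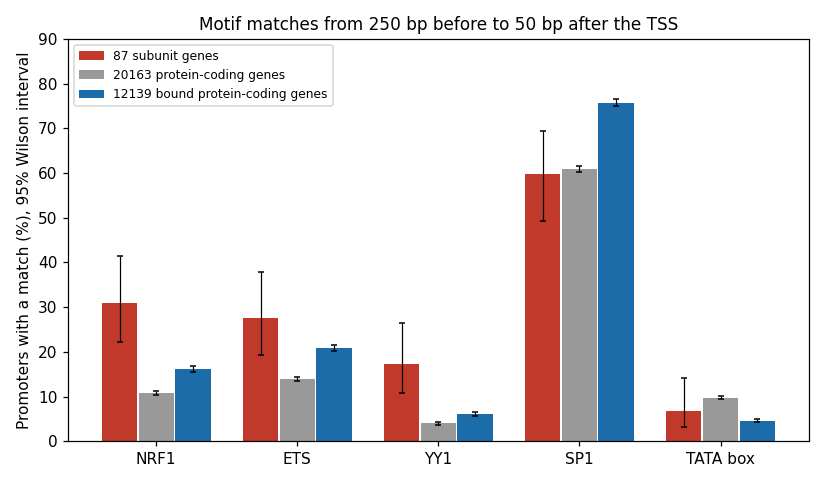
Share of promoters (%, with 95% Wilson intervals as error bars) that hold the letters of each motif, for the 87 subunit genes, all 20163 protein-coding genes and the 12139 bound ones. NRF1, ETS and YY1 letters are more frequent in subunit genes than in all genes, at 31.0%, 27.6% and 17.2%, and SP1 letters are less frequent than in bound genes.

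Matches to YY1 and to the other 2 factors differed in place. The 15 YY1 matches began at a median of position 18 downstream of the TSS, 12 of them (80%) downstream and 14 (93.3%) within 100 bp of it. Over all protein-coding promoters the median was 10 and 62.5% were downstream. NRF1 matches, 44 in 27 members, had a median position of -53.5, and the 30 ETS matches had -47.5. Over all protein-coding promoters these medians were -66 and -45. NDUFS7, NDUFA3, NDUFA9, UQCRC1 and ATP5PO held both NRF1 and YY1 letters. Of the 9 unbound members 1 held any of the 3 motifs, which was COX8C with NRF1 letters.

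Among bound members, the percentiles of promoters with and without a motif overlapped. The median of the mean percentile was 61.9 for the 26 with NRF1 letters and 61.3 for the 52 without. It was 66.1 for the 24 with ETS letters and 58.0 for the 54 without, and 63.5 and 61.0 with and without YY1 letters. The gap was wider for SP1 letters, at 65.0 for the 49 with them and 55.1 for the 29 without, and for TATA letters, at 53.7 for the 4 with them and 62.4 for the 74 without. The ranges overlapped in each case, and UQCRH held an ETS match while NDUFB1 and COX5A held none of the 3.

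Other genes of the pathway were bound throughout. All 54 assembly factors on a list drawn up from general knowledge were bound, with 15 for complex I, 4 for II, 9 for III, 23 for IV and 3 for V. All 54 had CpG-island-like sequence, where the background was 81.0%, against 60.2% over all protein-coding genes. For complex IV, 10 of 17 subunit genes were bound, and 10 of 11 without the tissue-restricted paralogues. NDUFAF1, an assembly factor of complex I, had 76.4, 47.4 and 43.0 in A, B1 and B2, at percentile 99.6 ± 0.345, above every subunit gene. CYCS, which encodes cytochrome c, had 51.8, 30.2 and 31.4, at 89.0 ± 2.44. CYC1, the cytochrome c1 subunit of complex III whose symbol the rule does not match, had 33.2, 30.7 and 32.2. ATP5IF1, the inhibitor of ATP synthase, was bound at 68.2 ± 6.25.

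Of 12 regulators of mitochondrial gene expression 11 were bound, all 11 with CpG-island-like sequence, where the background was 81.0%, against 60.2% over all protein-coding genes. NRF1 was at percentile 89.2 ± 3.1 and TFAM, which packages and transcribes mitochondrial DNA, at 91.7 ± 3.73. YY1 was at 55.2 ± 3.85. The coactivator gene PPARGC1B was low with 17.8, 8.16 and 10.5 in A, B1 and B2. PPARGC1A, the coactivator best known for mitochondrial biogenesis, had no peak in any replicate, and its promoter lacked CpG-island-like sequence.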

How the data were processed

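Peak lists of 3 PHF8 ChIP replicates of SKMEL-147 were analysed. Reads were aligned by the authors with Bowtie2 to hg19 (GRCh37), and narrow peaks were called with MACS against input, replicate by replicate. Picard and bcl2fastq are also named in the submitters' processing notes, and the MACS version and duplicate handling are not given in the sources used here. The deposited fold enrichment is a ratio of ChIP over local background at the summit. The deposited p-value and q-value are −log10 values, and the deposited score was not used. All listed peaks passed the study's cutoffs (fold enrichment above 1.5, q below 0.05, its printed direction being read as below).

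Genes and TSSs came from GENCODE release 44 on GRCh37, and promoter sequences from the GRCh37 genome. Percentiles used the strongest promoter peak of each gene in each replicate. That peak could lie at a different place from one replicate to the next. Fragments at the summit were solved from the fold enrichment and the p-value and were whole for 100% of peaks (tolerance 0.001 in −log10 p). Scripts used Python 3.11.15, numpy 2.4.6, pandas 2.3.3 and scipy 1.17.1 and were tested on simulated data. With 1 group, no condition was compared and no test was run.

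Named were all members without a call, the 3 highest and 2 lowest bound members, the highest and lowest of each complex, the paralogues with their counterparts and the core subunits. Other members (among them NDUFA1, NDUFS3, ATP5MC1, ATP5MJ, NDUFB9, NDUFB11, SDHC, ATP5F1D, ATP5PD and ATP5PF) were named after their values were seen. Members and lists were chosen with earlier results of these data known. Some items fixed by these rules are not reported here.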

Additional observations from a re-analysis of the deposited data

How the results depend on the processing

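Of the values recomputed under alternatives, 133 changed little, 21 moved and 1 reversed. TSS windows of 2 kb and 500 bp, a summit within the window, 50% of the peak inside it, a q-value below 0.001 and a fold enrichment above 4 left the same 78 members bound, since none was lost or gained. A fold enrichment above 10 removed COX7A2L, NDUFA4L2 and NDUFB3, the canonical TSS alone removed NDUFA4L2, and a peak in at least 2 replicates added COX7B. Without 1 replicate at a time the bound members numbered 78 to 79.

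The median percentile was 56.3 and the log2 ratio 0.085 with fold enrichment above 10, and 67.1 and 0.29 with recovered fragments. The median position was 123 bp with the canonical TSS alone, 91.2 bp with every listed prefix and 87 bp without neighbouring genes. Without neighbouring genes 39 members were bound (I 18, II 2, III 4, V 7), with fewer members by construction. The SP1 share was 73.6% within 250 bp on either side, where it was 69.2% of all and 85.0% of bound genes.

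Settings added after seeing the data were CpG-island-like genes only, no paralogues, and fold enrichment above 20. The last kept 45 members (I 23, II 2, III 4, IV 5, V 11), a percentile of 44.1, a position of 98 bp and a log2 ratio of -0.046, the only reversal. That cutoff selects genes on the value compared, which pulls the medians together, so nothing is read from the reversal. Without the paralogues 10 of 11 complex IV genes were bound.

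No paired analysis was possible because the inputs have no peak list here. The ChIP and input groups share the full name A only, while B1 and B2 share the letter of input B. No result comes from a test. Depth limits calls below 8 to 10 fragments at a summit.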
